A study of Mus musculus with 6 samples.

Results

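The epidermal growth factor (EGF) family ligands followed here, Egf, Tgfa, Areg, Ereg, Hbegf and Btc, and the ERBB receptors, Egfr, Erbb2, Erbb3 and Erbb4, were read out in RNA from the mouse oviduct, 6 ligands and 4 receptors. They were taken by symbol, and all 10 were found, among 55363 symbols in the deposited tables. Whole oviducts came from pregnant females mated at 6 to 8 weeks of age with fertile males and killed on gestational day 3, counting the day of the vaginal plug as the first. There were 3 libraries labelled Mettl3 f/f, the usual notation for a floxed gene, and 3 labelled Mettl3 d/d, the notation for its deleted form. Mettl3 encodes the catalytic subunit of the enzyme that writes N6-methyladenosine on RNA. The sources used here do not name the Cre driver, the deleted exons, the strain or any pooling of animals. Values are FPKM, fragments scaled to the length of the transcript and to the size of the library, so levels can be compared between genes. Values given one by one for a group follow the order of replicates 1 to 3.

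EGF family ligands are made as membrane-anchored precursors and are released by metalloproteases, chiefly ADAM17 and ADAM10. Egf, Tgfa and Areg bind EGFR, whereas Hbegf, Btc and Ereg bind both EGFR and ERBB4. Among the neuregulins, Nrg1 and Nrg2 bind ERBB3 and ERBB4, and Nrg4 binds ERBB4. ERBB2 binds no ligand and serves as the preferred partner, and ERBB3 has a weak kinase and signals through partners to PI3 kinase. In the female tract the family is known for the Areg, Btc and Ereg burst that relays luteinizing hormone in the ovarian follicle, and for Hbegf at embryo attachment in the uterus.

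The libraries held an estimated 16.7 to 17.8 M fragments. Oviduct markers were abundant in all 6 libraries, with the oviductal glycoprotein gene Ovgp1 at 2651 to 5690 FPKM, the ciliated-cell regulator Foxj1 at 11.9 to 93.8 and the smooth muscle myosin Myh11 at 232 to 624. Mettl3 itself read higher under the d/d label, at 11.8, 12.1 and 13.2 FPKM across the f/f libraries, against 19.8, 20.3 and 24.5 across the d/d libraries. A value per gene cannot show a missing exon, so every direction below rests on the labels. Some libraries stood apart. The summed level of the posterior tract genes Hoxa9, Hoxa10 and Hoxa11 was 23.7, 101 and 90.5 FPKM for f/f and 26.9, 33.4 and 39.8 across the d/d libraries. In f/f replicate 3 the steroid-producing enzyme gene Cyp11a1 was at 13.5 FPKM and Gata3 at 22.9, against at most 0.725 and 1.58 in the other libraries. Mitochondrial transcripts held 3.61 to 5.70% of the summed FPKM for f/f and 6.50 to 9.70% for d/d. Across 15438 features with a mean of at least 1 FPKM, 1701 passed the test (limma on log2(FPKM + 1), Benjamini-Hochberg adjusted p under 0.05), 933 higher (6.04%) and 768 lower (4.97%) in d/d. After rescaling to the features that are neither mitochondrial nor among the most abundant, 730 were higher and 907 lower, so that 44.6% of the called features were higher in d/d, against 54.9% without it.

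Of the 8 genes with a mean of at least 1 FPKM, 0 were called by limma in either direction (background: 11% of all features tested). An unadjusted p under 0.05 was found for 3 of them, Erbb3, Egf and Btc, beside 4562 of the 15438 features tested. Ereg and Erbb4 lay under the minimum and were not tested in this fit. Both groups were fully separated for 4 of the 8: Egf, Hbegf and Btc were higher in every d/d library than in any f/f library, and Erbb3 was lower. The same separation was seen in 35.6% of all features, with 18.1% higher and 17.4% lower in d/d. Egf reached the minimum only through its d/d values, so its place in these counts and in the ligand median carries that selection. The median log2 change was 0.32 for the 5 ligands tested and -0.03 for the 3 receptors tested, beside -0.01 for all features. Whether each replicate is a separate animal is not stated in the labels, and a p-value here covers only the spread between these libraries, which may be technical. In whole-tissue RNA, fewer cells of a type and less RNA per cell cannot be told apart.

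**Figure D1:**
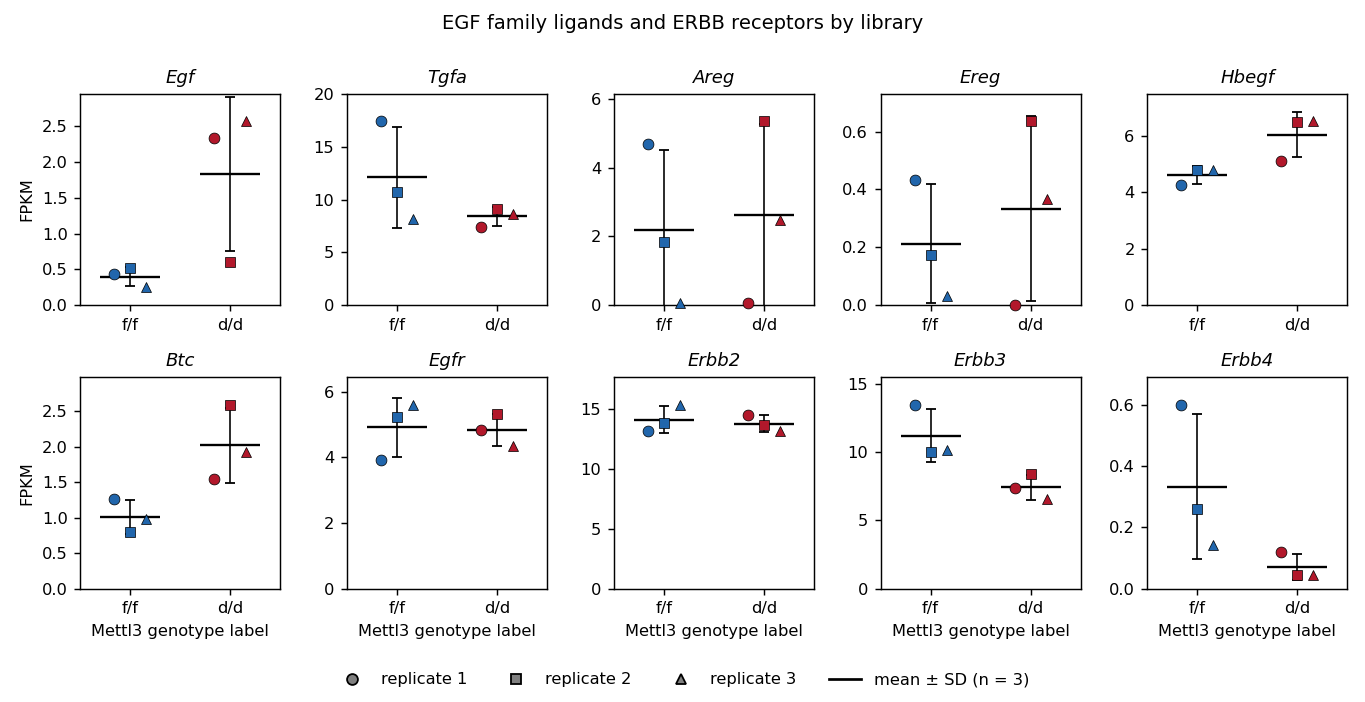
FPKM of each of the 10 genes in the 6 libraries (points; shape gives the replicate number), with the mean and SD of each group (n = 3; bars reaching below 0 are cut at the axis) against the Mettl3 genotype label. Erbb2 and Egfr lay at like levels in both groups, Erbb3 was lower in every d/d library, and Areg and Ereg spread from near 0 to their highest values within each group.

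On GRCm38 the ligand genes lie on chromosomes 3 (Egf), 6 (Tgfa), 5 (Areg, Ereg and Btc) and 18 (Hbegf), and the receptor genes on chromosomes 11 (Egfr and Erbb2), 10 (Erbb3) and 1 (Erbb4). In f/f oviducts the order of the mean levels was Erbb2, Tgfa, Erbb3, Egfr, Hbegf, Areg, Btc, Egf, Erbb4 and Ereg. Neighbours in this order overlapped between libraries, except that all Erbb3 values lay above all Egfr values and all Btc values above all Egf values. In d/d oviducts the order was the same for the first 3 genes. Hbegf then stood above Egfr, and Ereg above Erbb4. There, all Erbb2 values lay above all Tgfa values and all Erbb3 values above all Hbegf values, and the other neighbours overlapped.

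Erbb2, the receptor without a ligand of its own, had the highest mean level of the 10 genes in both groups. Relative to its level, it also had the narrowest range over the 6 libraries. It was at 13.2, 13.8 and 15.4 FPKM across the f/f libraries, against 14.5, 13.6 and 13.2 across the d/d libraries. The groups overlapped, with a log2 change of -0.03 (95% interval -0.29 to 0.23; adjusted p by limma = 0.883). Egfr, which binds all of the ligands followed here, was at 3.91, 5.22 and 5.59 FPKM across the f/f libraries. Across the d/d libraries it was at 4.83, 5.32 and 4.36, again inside the f/f range. Erbb2 overlaps Mien1 on the opposite strand, which reached 104 FPKM. Whether counting used strand is not given in the sources used here, and without strand reads in the overlap cannot be told apart. The level and rank of Erbb2 and the ratios to it carry that limit. The log2 change of Egfr was -0.01 (95% interval -0.41 to 0.39; adjusted p by limma = 0.977). The ratio of Egfr to Erbb2 was 0.346 ± 0.0436 for f/f and 0.351 ± 0.0341 for d/d (SD, n = 3 each).

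Erbb3, which with Erbb2 forms the receptor pair for neuregulins, was the receptor gene that differed most among those tested. Its level was 13.5, 10.01 and 10.2 FPKM across the f/f libraries, against 7.36, 8.39 and 6.54 across the d/d libraries. Every d/d library lay below every f/f library. The means were 11.2 ± 1.96 and 7.43 ± 0.926 FPKM (SD, n = 3 each), a 1.51-fold lower level in d/d. The log2 change of -0.53 (SE 0.16, 95% interval from -0.91 to -0.15) missed the threshold after adjustment over all features (adjusted p = 0.0785 and unadjusted p = 0.0129 from limma). Within each library the ratio of Erbb3 to Erbb2 was 1.02, 0.723 and 0.661 for f/f, against 0.506, 0.615 and 0.495 for d/d, without overlap. Such a ratio does not depend on the scaling between libraries, but it carries the limit of Erbb2 given above. Whether Erbb3 by itself separates under other scalings was not tested. Epithelial markers, whose cells carry ERBB3 in many tissues, did not move as one. Of 6 tested, limma called Epcam (1.52-fold) and Cdh1 (1.37-fold) higher and Krt18 (1.46-fold) lower. Krt19 and Krt8 were also lower in every d/d library, by 1.79-fold and 1.27-fold. Neither was called (adjusted p by limma = 0.0557 and 0.181). Krt7 overlapped between groups. The summed level of the 6 was 813 to 944 FPKM for f/f and 670 to 752 for d/d. Of 4 Schwann cell markers, which mark another ERBB3-dependent cell type, 2 were tested and 0 passed (limma; neither had an unadjusted p under 0.05). Their summed level was 11.9 to 14.7 FPKM for f/f and 5.25 to 10.7 for d/d. The part of either cell type in the Erbb3 values was not tested.

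Erbb4, a receptor for neuregulins and for Hbegf, Btc and Ereg, was scarce. It was at 0.600, 0.259 and 0.141 FPKM across the f/f libraries, against 0.119, 0.0458 and 0.0461 across the d/d libraries. The groups did not overlap, but the lowest f/f value and the highest d/d value were close. The mean was 4.74-fold lower in d/d, 2.85-fold lower when f/f replicate 1 was left out and 7.25-fold when d/d replicate 1 was. Without the filter on low values the log2 change was -0.30 (SE 0.13; adjusted p by limma = 0.253), on a scale that understates changes of so low a gene. With a pseudocount of 0.1 it was -1.23 (SE 0.49; adjusted p by limma = 0.220). If all Erbb4 fragments came from its longest annotated transcript of 12037 nt, the d/d libraries held 24.2, 8.99 and 9.18 of them. The 4 receptors together summed to 30.6 ± 1.08 FPKM for f/f and 26.1 ± 1.73 for d/d (SD, n = 3 each), with no overlap, a difference that lay mostly in Erbb3.

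**Figure D2:**
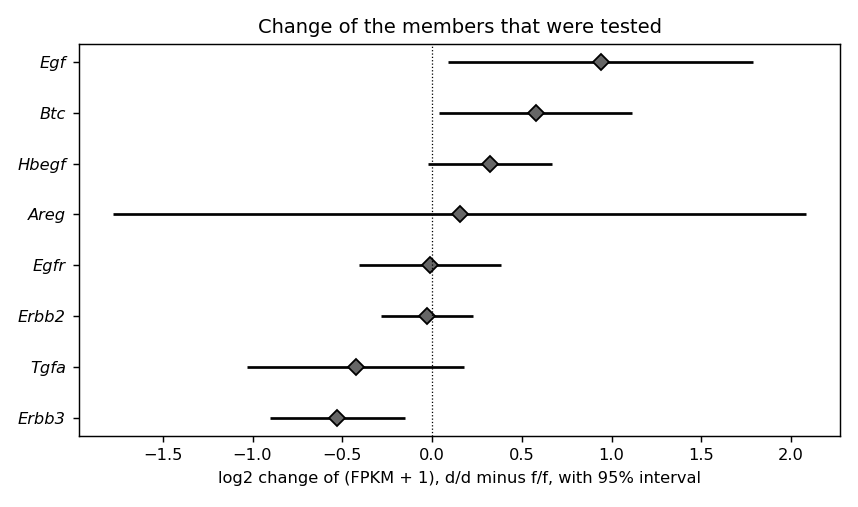
Log2 change of FPKM + 1, d/d minus f/f, with its 95% interval from the limma fit, for the 8 genes with a mean of at least 1 FPKM. The intervals of Egf, Btc and Erbb3 lie on one side of 0 before adjustment for the number of features, and Egf was included only through its d/d values. Those of Erbb2 and Egfr lie around 0 (Egfr from -0.41 to 0.39), and that of Areg runs from -1.78 to 2.08.

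Tgfa, an EGFR-only ligand, was the most abundant ligand transcript in every library. It was at 17.4, 10.8 and 8.21 FPKM across the f/f libraries, against 7.42, 9.17 and 8.66 across the d/d libraries. The groups overlapped and f/f replicate 1 stood high. The log2 change was -0.42 (95% interval -1.03 to 0.18; adjusted p by limma = 0.312). The 1.44-fold lower mean in d/d was 1.13-fold without f/f replicate 1. The summed level of the 6 ligands overlapped between groups as well, at 20.6 ± 7.25 FPKM for f/f and 21.3 ± 4.31 for d/d (SD, n = 3 each). Tgfa held 61.2%, 57.1% and 57.3% of that sum across the f/f libraries and 45.0%, 36.9% and 38.4% across the d/d libraries, with no overlap. This share was not tested, and it moves with the Areg and Egf values, which were uneven among libraries.

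Egf, the founding ligand, was low in f/f and uneven in d/d. Its level was 0.434, 0.515 and 0.250 FPKM across the f/f libraries, against 2.34, 0.603 and 2.57 across the d/d libraries. All d/d values were above all f/f values, although d/d replicate 2 lay next to the f/f range. The mean was 4.60-fold higher in d/d, with a log2 change of 0.94 (SE 0.36, adjusted p = 0.139 and unadjusted p = 0.0347 from limma). Leaving out single libraries gave folds of d/d over f/f from 3.68 to 6.14. Egf entered the test only through its d/d values, and it fell under the minimum without d/d replicate 1 or 3. Its p-values therefore carry that selection. Without the filter the adjusted p by limma was 0.178.

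Btc, which binds EGFR and ERBB4, was at 1.27, 0.796 and 0.977 FPKM across the f/f libraries, against 1.55, 2.59 and 1.92 across the d/d libraries. Each d/d library was above each f/f library, and the mean was 2.00-fold higher (log2 change 0.58, SE 0.23, adjusted p = 0.147 and unadjusted p = 0.0389 from limma). Hbegf, the heparin-binding ligand, was at 4.25, 4.78 and 4.80 FPKM across the f/f libraries, against 5.12, 6.49 and 6.52 across the d/d libraries. The groups did not overlap here either, and the mean was 1.31-fold higher (log2 change 0.32, 95% interval -0.02 to 0.67, adjusted p by limma = 0.195). Macrophages are a known source of Hbegf, and macrophage markers were higher beside these values. Of 7 markers 7 rose, with a summed level of 329 to 420 FPKM for f/f and 921 to 1233 for d/d. Their part in the Hbegf and Btc values was not tested.

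Areg (amphiregulin) and Ereg (epiregulin), both inducible ligands, differed far more among libraries of 1 group than between groups. Areg was at 4.68, 1.83 and 0.0615 FPKM across the f/f libraries, against 0.0611, 5.35 and 2.49 across the d/d libraries. From its single annotated transcript of 1215 nt these values correspond to about 79.6, 31.2 and 1.01 fragments for f/f and 1.01, 85.1 and 40.2 for d/d. A single fragment therefore stood for Areg in f/f replicate 3 and in d/d replicate 1, where the values say little beyond a low level. The group means were 2.19 ± 2.33 and 2.63 ± 2.65 FPKM (SD, n = 3 each), and the log2 change was 0.15 (SE 0.81; adjusted p by limma = 0.920). The ratio of d/d to f/f means was 1.20. Leaving out f/f replicate 3 turned it to 0.808 and leaving out d/d replicate 2 to 0.581, whereas it was 2.78 with f/f replicate 1 left out and 1.79 with d/d replicate 1 left out.

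Ereg was high and low in the same libraries. It was at 0.434, 0.174 and 0.0301 FPKM across the f/f libraries, listed at 0 in d/d replicate 1, and at 0.636 and 0.367 in d/d replicates 2 and 3. These are about 29.9, 12.0 and 2.00 fragments for f/f and 0, 41.0 and 24.0 for d/d, from a single transcript of 4128 nt. In d/d replicate 1 a count of 0 allows up to 3 fragments, or 0.0449 FPKM, counting error only. Both genes were highest in d/d replicate 2, then f/f replicate 1, d/d replicate 3 and f/f replicate 2. The lowest pair was d/d replicate 1 with f/f replicate 3, and at about 1 fragment each these cannot be ordered for Areg. The ratio of the group means of Ereg, d/d over f/f, was 1.57, and it was 3.27 without f/f replicate 1, 2.36 without d/d replicate 1 and 0.862 without d/d replicate 2. An antisense gene model at the Ereg locus, Gm19610, reached 0.420 FPKM, and reads of the pair cannot be told apart without strand. Without the filter the log2 change of Ereg was 0.12 (SE 0.21; adjusted p by limma = 0.763).

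**Figure D3:**
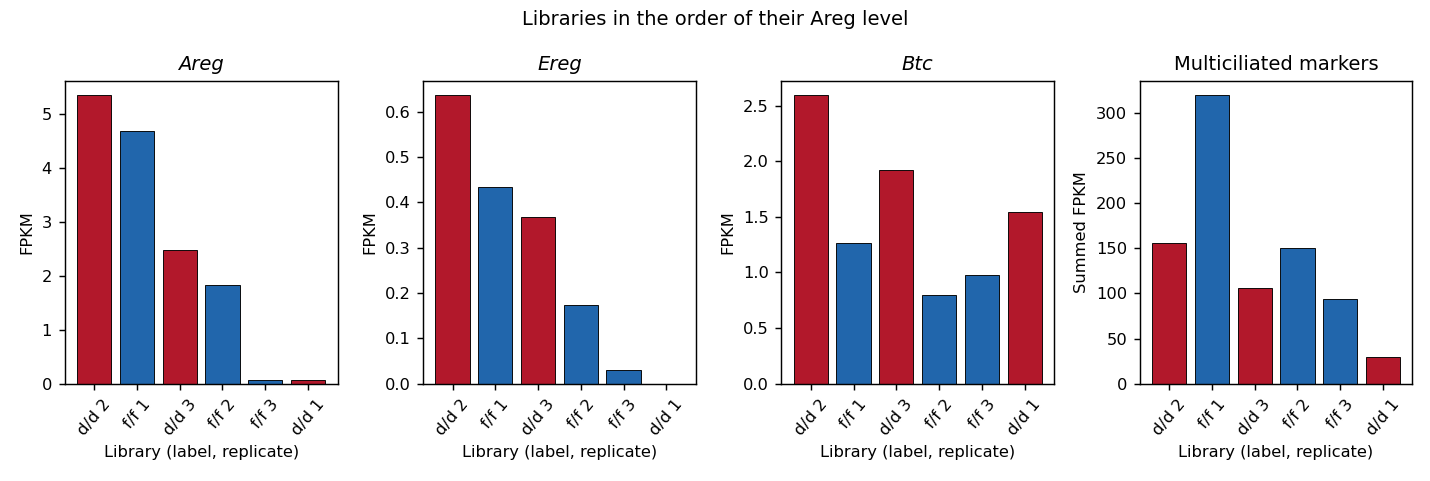
FPKM of Areg, Ereg and Btc and the summed FPKM of 7 multiciliated cell markers in each library, with the 6 libraries in the order of their Areg level (f/f blue, d/d red; bars are single libraries). Ereg falls in the same order as Areg over the first 4 libraries and is near 0 in the same last pair. Btc does not follow that order over the 6 libraries but does within d/d. The ciliated markers are highest in f/f replicate 1 and lowest in d/d replicate 1.

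Markers of several cell types varied among the same libraries. The summed level of 7 multiciliated markers was 319, 150 and 93.2 FPKM across the f/f libraries, against 29.7, 155 and 105 across the d/d libraries. It was thus lowest in the same pair of libraries as Areg and Ereg, and highest in the same pair. None of these 7 was at 0, and 0 of 7 passed the test (limma; none had an unadjusted p under 0.05). Mast cells and lymphocytes can make Areg. Mast cell markers summed to 12.2 to 35.0 FPKM for f/f and 9.14 to 20.5 for d/d, and 5 of the 6 were listed at 0 in at least 1 library. Nearly all of that sum was Kit, which is not specific to mast cells, highest at 30.6 FPKM in f/f replicate 1 and lowest at 8.76 in d/d replicate 1, while the other 5 were each at or below 1.94 FPKM. Lymphocyte markers summed to 8.86 to 31.1 FPKM in f/f, the highest value being the library with high Gata3, and to 11.3 to 20.6 in d/d. Neutrophil markers summed to 88.2, 5.76 and 3.46 FPKM across the f/f libraries, against 82.7, 97.8 and 28.7 across the d/d libraries. They were thus high in 1 and low in the other of the libraries with about 1 Areg fragment. Granulosa and luteal markers, from the ovarian cells best known for Areg and Ereg, summed to 26.5 FPKM in f/f replicate 3 and 6.22 to 8.17 elsewhere, and the follicle-stimulating hormone receptor Fshr was listed at 0 in all 6. The part of these cell types in the Areg and Ereg values was not tested.

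Ereg, Areg and Btc lie in this order on chromosome 5 of GRCm38 (Ereg from 91074622 to 91093646 and Areg from 91139599 to 91148432 on the plus strand, Btc from 91357261 to 91402994 on the minus strand). The annotated gap was 46.0 kb between Ereg and Areg and 209 kb between Areg and Btc. Of the 3 neighbours, the close pair was high and low in the same libraries. Btc did not follow that order over the 6 libraries, as all its d/d values lay above all its f/f values. Within d/d, however, Btc had the same order as Areg, and within f/f both were highest in replicate 1. To show what precedes the start site of the gene with the widest spread, of its steadier neighbour and of the most abundant ligand, the 250 bases upstream of each are given 5′ to 3′ from RefSeq on GRCm38.p6. They are Areg at chr5:91139349-91139598 (plus strand), Btc at chr5:91402995-91403244 (minus strand) and Tgfa at chr6:86194972-86195221 (plus strand). Capitals mark matches to the motifs searched, of which the Btc window held none.
Areg: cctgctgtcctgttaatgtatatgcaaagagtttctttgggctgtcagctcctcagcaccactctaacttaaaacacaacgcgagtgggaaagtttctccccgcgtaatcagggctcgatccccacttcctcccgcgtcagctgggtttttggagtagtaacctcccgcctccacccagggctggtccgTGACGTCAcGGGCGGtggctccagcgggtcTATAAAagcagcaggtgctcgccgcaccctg
Btc: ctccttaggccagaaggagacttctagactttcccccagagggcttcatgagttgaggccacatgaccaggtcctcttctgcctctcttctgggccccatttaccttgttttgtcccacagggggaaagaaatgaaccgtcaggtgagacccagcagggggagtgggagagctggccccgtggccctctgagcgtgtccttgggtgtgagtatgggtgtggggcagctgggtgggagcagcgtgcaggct
Tgfa: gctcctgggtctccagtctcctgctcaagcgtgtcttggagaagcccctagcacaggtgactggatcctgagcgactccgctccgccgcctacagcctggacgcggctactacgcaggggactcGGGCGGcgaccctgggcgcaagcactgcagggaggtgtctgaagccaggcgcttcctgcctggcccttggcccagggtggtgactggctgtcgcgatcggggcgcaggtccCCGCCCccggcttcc
Motifs were sought on both strands in all 32851 RefSeq windows of this length and in the 8 windows of 7 of the genes (Egf has 2, and Ereg, Hbegf and Erbb3 are not shown). The cAMP response element TGACGTCA was found 61 bases before the Areg start site and in 1.55% of all windows. The GC box GGGCGG followed 52 bases before the start (32.7% of all windows) and the TATA box TATAAA 31 bases before it (12.4%). Among the 8 windows, Areg alone held TGACGTCA or TATAAA, while GGGCGG was also found in Tgfa, at 126 and 15 bases before the start, and in Egfr. The steroid receptor core ACANNNTGT (5.84% of all windows) and the AP-1 site TGANTCA (6.75%) were in 0 of the 8. TGACGTCA and GGGCGG do not overlap in Areg. A match describes letters, not binding.

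The rest of the pathway was read from 6 lists of 85 other genes, of which 77 were tested. Of these 4 rose and 4 fell, 10.4% in all, near the background of 11%, with a median log2 change of 0.02. The lists therefore did not stand out from all features, and single genes are described here. With any single library but f/f replicate 1 left out, 0 of them passed in the higher direction. With f/f replicate 2 left out 1 passed in the lower direction, and 2 did so with f/f replicate 3 left out, as well as with replicate 1 or 3 of the d/d group left out. The clearest was Errfi1, whose product (MIG6) binds the ERBB kinase domain and shuts it off. It was at 154, 182 and 213 FPKM across the f/f libraries, against 74.3, 53.1 and 52.6 across the d/d libraries, far below. The mean fell from 183 ± 29.1 to 60.0 ± 12.4 FPKM (SD, n = 3 each), 3.05-fold lower, with a log2 change of -1.60 (SE 0.18; adjusted p by limma = 0.00746). Errfi1 passed whichever single library was left out. In the same list of 16 receptor inhibitors and turnover genes (1 rose and 1 fell, median log2 change 0.12), the receptor tyrosine phosphatase gene Ptprj rose 1.81-fold, from 6.97 ± 1.21 to 12.6 ± 2.62 FPKM (SD, n = 3 per group; adjusted p by limma = 0.0442). The call of Ptprj ended when any library other than f/f replicate 1 was left out, and after rescaling without mitochondrial and top features. It held in 4 of the 15 alternative fits. Lrig1, another receptor inhibitor, was at 40.7 to 45.1 FPKM for f/f and 47.5 to 50.1 for d/d (adjusted p by limma = 0.251).

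**Figure D4:**
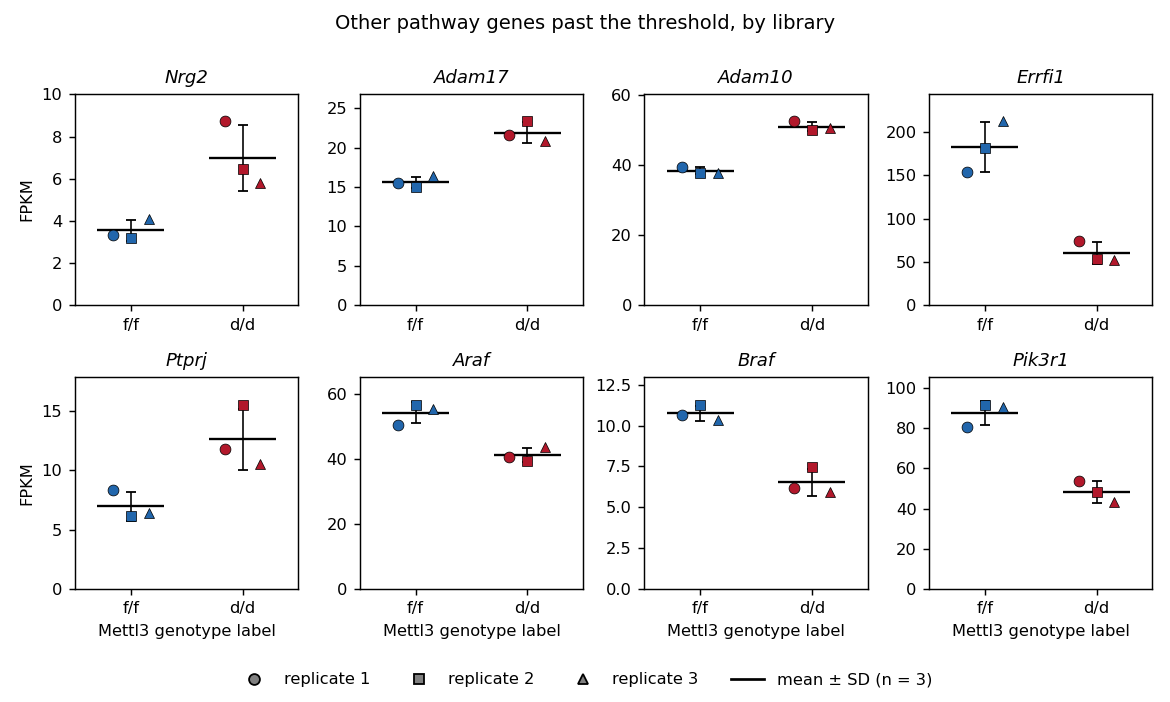
FPKM of the 8 other pathway genes past the threshold in the 6 libraries (points; shape gives the replicate number), with the mean and SD of each group (n = 3) against the Mettl3 genotype label. The d/d libraries sit at 52.6 to 74.3 FPKM for Errfi1 and at 43.1 to 54.0 for Pik3r1, below every f/f library, as they also do for Araf and Braf, and above every f/f library for Nrg2, Adam17, Adam10 and Ptprj.

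Both main ligand-releasing proteases were higher in d/d. Adam17 was at 15.5, 15.0 and 16.4 FPKM across the f/f libraries, against 21.6, 23.4 and 20.8 across the d/d libraries, a 1.40-fold rise (log2 change 0.46, SE 0.10, adjusted p by limma = 0.0332). Adam10 rose 1.33-fold, from 38.4 ± 0.955 to 51.1 ± 1.35 FPKM (SD, n = 3 per group; adjusted p by limma = 0.0318). The Adam17 call ended whichever single library was left out, and that of Adam10 ended with any but f/f replicate 1 left out. Both ended after rescaling without mitochondrial and top features, and each held in 6 of the 15 alternative fits. Of the 10 shedding genes tested, 2 rose and 0 fell, with a median log2 change of 0.13. Timp3, an inhibitor of ADAM17, was at 188, 321 and 309 FPKM across the f/f libraries, against 171, 148 and 162 across the d/d libraries, without overlap (adjusted p by limma = 0.0776).

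Of 5 further ligands, 2 reached the minimum, 1 rose and 0 fell. Nrg2, a neuregulin that binds ERBB3 and ERBB4, was at 3.32, 3.21 and 4.11 FPKM across the f/f libraries, against 8.73, 6.45 and 5.78 across the d/d libraries. It rose 1.97-fold (log2 change 0.80, SE 0.18, adjusted p by limma = 0.0401) but did not pass with any single library left out. Nrg4, an ERBB4 ligand, was at 3.21 ± 1.05 and 3.16 ± 0.858 FPKM (SD, n = 3 each). Nrg1, a ligand of ERBB3 and ERBB4 below the minimum, was at 0.210, 0.495 and 0.393 FPKM across the f/f libraries, against 0.595, 1.78 and 0.780 across the d/d libraries. Every d/d value of Nrg1 lay above every f/f value, with d/d replicate 2 far above the rest, and the mean was 2.88-fold higher, with no test in this fit. Epgn stayed at or below 0.110 FPKM, and Nrg3 was listed at 0 in all 6 libraries.

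Among 27 tested adaptors and kinases downstream of the receptors, 0 rose and 3 fell (median log2 change -0.11). Pik3r1, the regulatory subunit of PI3 kinase that docks on ERBB3, was at 80.9, 91.7 and 90.7 FPKM across the f/f libraries, against 54.0, 48.1 and 43.1 across the d/d libraries. It fell 1.81-fold (log2 change -0.85, SE 0.12, adjusted p by limma = 0.0105) and missed the threshold without f/f replicate 2 (adjusted p by limma = 0.0550). The kinase genes Braf and Araf fell 1.65-fold and 1.31-fold (adjusted p by limma = 0.0253 and 0.0487). Leaving out f/f replicate 1 left the Araf call in place, and leaving out any other library ended it. The Braf call stayed with f/f replicate 1 or with d/d replicate 2 left out, and ended with any other library left out.

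Transcripts that ERK signalling induces did not pass. Of 10 tested ERK feedback inhibitors 0 were called by limma, and the median log2 change was 0.19. An unadjusted p under 0.05 was found for 4 of them, beside 4562 of the 15438 features tested. Among them Dusp5, Dusp6, Dusp7, Spred1 and Spred2 were higher in every d/d library than in any f/f library, beside 18.1% of all features. The 2 most abundant were Spry1, at 44.7 ± 3.18 FPKM for f/f and 35.3 ± 8.97 for d/d (adjusted p by limma = 0.232), and Spred1, at 19.8 ± 1.18 and 25.8 ± 0.484 (SD, n = 3 per group; adjusted p by limma = 0.0555). Of 16 ERK-induced genes listed 12 were tested, and 0 were called as well (limma; 1, Plaur, had an unadjusted p under 0.05), with a median log2 change of -0.07. Under the minimum, Etv4 was at 0.186, 0.162 and 0.246 FPKM across the f/f libraries, against 0.678, 1.90 and 0.619 across the d/d libraries. Fosb and Fosl1, also under it, had lower means in d/d with overlap, and Egr2 was listed at 0 throughout. Ccnd1, the cyclin D1 gene, was at 82.0, 46.4 and 51.7 FPKM across the f/f libraries, against 85.4, 74.0 and 73.2 across the d/d libraries. Ier3, an immediate early gene, was at 78.1, 48.5 and 53.1 FPKM across the f/f libraries, against 67.6, 89.9 and 91.1 across the d/d libraries. Both overlapped through f/f replicate 1 alone, and without that library both passed (adjusted p by limma = 0.0236 for Ccnd1 and 0.0465 for Ier3). With any other single library left out neither passed. The adjusted p by limma was then 0.342 to 0.551 for Ccnd1 and 0.152 to 0.409 for Ier3.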

How the data were processed

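RNA from whole oviducts was sequenced in 6 libraries, 3 labelled f/f and 3 labelled d/d. The authors deposited 1 table per library of 55483 gene rows, whose values are taken as FPKM. The unit is inferred from the values and from Cufflinks 2.2.1, which the submitters' processing notes name beside HISAT2 2.2.1; the notes name both mm9 and mm10. Rows sharing 1 of 114 symbols were summed. No pair of libraries was identical. Depth was estimated from the spacing of low FPKM values, which fell within 1% of whole fragments for 92.5 to 93.7% of the low genes used. Fragment numbers are approximate, assume an effective length 260 nt shorter than the transcript, and carry counting error only. GENCODE M21 (GRCm38) gave coordinates for 99.4% of rows, and RefSeq (GRCm38.p6) gave promoters for 7 of the 10 genes. Coordinates are those of the annotation, since the deposited rows carry no build.

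Features with a mean of at least 1 FPKM over the 6 libraries entered limma 3.58.1 (R 4.3.3) on log2(FPKM + 1) with a variance trend and Benjamini-Hochberg adjustment over all of them. A log2 change on this scale understates the change of low genes, and folds are ratios of mean FPKM. The fit was tested on simulated log2 values with normal noise, which do not model values resting on few fragments. All 10 genes are described. From each other pathway list, every gene past the threshold was named, or the 2 most abundant where none passed. Areg-like genes and the other genes named without a call (Lrig1, Timp3, the other neuregulins, the ERK feedback genes without overlap, the untested ERK-induced genes, the marker genes) were picked with their values in view. The genes and lists were chosen with earlier results of these data known. Alternatives changed the pseudocount, filter, scaling, variance trend, replicate block and libraries used.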

Additional observations from a re-analysis of the deposited data

How the results depend on the processing

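Of the ligand and receptor genes tested, limma called 0 in each of the 15 alternatives, and between 1 and 4 had an unadjusted p under 0.05. Those tested numbered 7 or 8 wherever the filter was kept. Ereg and Erbb4 entered only the fits without it, and Egf entered 12 of the 15, dropping out where d/d replicate 1 or 3 was left out. The adjusted p of Erbb3 ran from 0.0679 to 0.193. Against 933 features higher and 768 lower, and 4 other pathway genes each way, no filter gave 599, 508, 2 and 2. Other pathway genes called higher numbered 1 after rescaling without mitochondrial and top features, 2 without the variance trend, 2 without replicate 1 of both groups, and 2 with no filter and a pseudocount of 0.1, an alternative chosen after seeing the data. Leaving out 1 library at a time gave 184 to 942 features higher, 124 to 853 lower, 0 to 0 of the 7 or 8 ligand and receptor genes tested called, 0 to 4 other pathway genes higher and 1 to 5 lower. The cause was not tested. Labels number the replicates 1 to 3 in both groups, but same-numbered libraries did not deviate together (r = -0.22, -0.06 and 0.0027). Over all features tested, differently numbered pairs ran from r = -0.28 to 0.28. The highest were f/f replicate 1 with d/d replicate 2 (0.28) and f/f replicate 3 with d/d replicate 1 (0.26). These are also the pairs highest and lowest in Areg. Deviations within a group sum to 0, so r above 0 for some pairs comes with r below 0 for others. How many features follow the Areg order was not tested. A fit with a replicate block gave these counts: 174 features higher, 102 lower, and 0 other pathway genes called in either direction. Of the other pathway genes called in the main fit, Errfi1 passed in 14 of the 15 alternatives and Pik3r1 in 13. Braf passed in 8, Adam17 and Adam10 in 6 each, Araf and Nrg2 in 5 each, and Ptprj in 4. No direction reversed among called values. Depth limits Areg, Ereg and Erbb4 most, where single libraries rest on few fragments or none. FPKM of a whole gene cannot separate isoforms.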

Other observations

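The spread of Areg among libraries was shared most closely by Foxa2, a transcription factor of gland and duct epithelium. Foxa2 was at 7.17, 2.66 and 0.554 FPKM across the f/f libraries, against 0.640, 9.57 and 3.86 across the d/d libraries. Its Pearson r with Areg on the log2(FPKM + 1) scale was 0.994 over the 6 libraries, the highest of 13582 features compared. Next came Lrrc8b, a subunit of a volume-regulated anion channel (r = 0.989), and Tcte1, a component of the axonemal regulatory complex of cilia and flagella (r = 0.986). Tcte1 was at 20.5, 8.70 and 3.21 FPKM across the f/f libraries, against 2.33, 16.3 and 10.4 across the d/d libraries. These are descriptions over 6 libraries that share their depth and processing, and the comparison was chosen after the Areg values were seen. They are the highest of 13582 values of r over only 6 points. How high r would run among so many unrelated features was not tested.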
